A study of Mus musculus with 6 samples.

Results

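The transcripts of 10 secreted metalloproteinases of the Adamts family were followed in the vascular smooth muscle of the embryonic mouse descending aorta (embryonic day 14.5) across 3 Jag1 genotypes. The members were fixed by gene symbol (Adamts1, Adamts2, Adamts4, Adamts5, Adamts7, Adamts9, Adamts10, Adamts12, Adamts15 and Adamts20), and each symbol matched 1 row, so that they made up 10 of the 37309 genes in the deposited table. By the table, Adamts4 lies on chromosome 1, Adamts9 on 6, Adamts7 and Adamts15 on 9, Adamts2 on 11, Adamts12 and Adamts20 on 15, Adamts1 and Adamts5 on 16, and Adamts10 on 17. The table held 19 numbered Adamts protease genes, of which the other 9 are described below as relatives. Each genotype was represented by 2 RNA sequencing libraries. Wildtype libraries came from Jag1 lox/lox embryos without Cre, heterozygous libraries from lox/+ embryos with Cre, and knockout libraries from lox/lox embryos with Cre, so every group carried at least 1 floxed allele, and Cre differed from the wildtype together with Jag1. Knockout and heterozygous libraries both carried Cre. The labels name neither the promoter that drove Cre nor the number of embryos behind a library, and they do not say whether replicates were separate litters. P values therefore rest on the spread between replicate libraries, pooled over the 3 genotypes, and that spread may be technical.

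Adamts enzymes are made as inactive precursors with a prodomain, a zinc-binding catalytic domain, a disintegrin-like domain and thrombospondin type repeats that anchor the enzyme in the extracellular matrix. Proprotein convertases remove the prodomain, Timp3 is their best known tissue inhibitor, and the endocytic receptor Lrp1 clears several of them. By substrate the members fall into groups: Adamts1, Adamts4, Adamts5, Adamts9, Adamts15 and Adamts20 cleave the large proteoglycans versican and aggrecan, Adamts2 trims the amino-terminal propeptide of fibrillar procollagens, Adamts7 and Adamts12 cleave cartilage oligomeric matrix protein (Comp), and Adamts10 acts on fibrillin microfibrils. In the arterial wall versican and fibrillin are part of the extracellular matrix around smooth muscle cells, and mice with reduced Adamts1 develop aortic aneurysm. Jag1 encodes a transmembrane ligand of Notch receptors, and the series title links it to the silencing of a cartilage programme in the vessel wall.

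Promoter windows of 250 bases before the annotated start were found for 5 of the 10 members (Adamts1, Adamts2, Adamts9, Adamts12 and Adamts20) in RefSeq on GRCm38.p6, which is a different build from the mm9 named in the submitters' processing notes. The windows of Adamts1 and Adamts12 are shown because Adamts1 had the largest rise and Adamts12 the largest fall among the members tested in knockout against wildtype. They are written 5′ to 3′ on the strand of the gene, and capitals mark a TATAAA match.
Adamts1, chr16:85803114-85803363, minus strand: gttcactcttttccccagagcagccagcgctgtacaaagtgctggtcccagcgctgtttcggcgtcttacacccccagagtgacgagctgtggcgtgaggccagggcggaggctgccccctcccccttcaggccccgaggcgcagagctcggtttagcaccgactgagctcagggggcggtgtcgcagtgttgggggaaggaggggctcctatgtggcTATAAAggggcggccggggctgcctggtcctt
Adamts12, chr15:11064523-11064772, plus strand: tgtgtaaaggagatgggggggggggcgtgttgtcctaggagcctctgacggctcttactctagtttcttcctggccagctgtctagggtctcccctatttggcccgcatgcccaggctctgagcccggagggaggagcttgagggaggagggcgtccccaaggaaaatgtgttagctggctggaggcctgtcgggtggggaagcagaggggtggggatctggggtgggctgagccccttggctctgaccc
The patterns searched on both strands were TGGGAA, the core bound by the Notch effector Rbpj, TGACTCA, bound by AP-1, TATAAA, and the CArG box of serum response factor. The single match in the 5 windows was TATAAA in Adamts1, from 32 to 27 bases before the start. Among the 27025 promoters of the same length in the table, 13% held TATAAA, 21.5% held TGGGAA, 4.43% held TGACTCA and 1.4% held a CArG box, and the match in Adamts1 overlapped no other pattern. A match is a run of letters, and a window without one says nothing about the factor. GC content was 65.6% in the Adamts1 window and 63.2% in the Adamts12 window, against a median of 52% over all promoters. In the RefSeq gene table Adamts1 and Adamts5 are adjacent protein-coding genes on chromosome 16.

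Values are scaled read counts, which the authors obtained by dividing a gene's reads by a size factor of its library. The libraries held 17323962 to 28123670 reads in genes, and replicate 1 of each group was deeper than replicate 2. Jag1 itself measured 1965 and 1885 in wildtype, 492 and 584 in heterozygous and 19.9 and 35.4 in knockout libraries. For the labelled cell type, the contractile genes Acta2 and Tagln measured 79074 to 120179 and 48281 to 60626 over the 6 libraries. Some other smooth muscle markers differed more, and Des went from 5720 and 5098 in wildtype to 924 and 814 in knockout libraries. Of the other cell types checked, macrophage and leukocyte markers were plentiful and differed between genotypes, and 4 Y-linked genes summed to 2103 and 2332 in wildtype, 1748 and 1914 in heterozygous and 10.9 and 19.6 in knockout libraries, so that the sex of the embryos and the loss of Jag1 cannot be told apart in comparisons with the knockout. The knockout pair scattered more than the others, with a chi-square per gene over counting error of 23.5 against 5.07 in wildtype and 3.75 in heterozygous. In bulk RNA, fewer cells of a type and less RNA per cell cannot be told apart, and this holds for every result below.

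Per kilobase of listed gene length, which is the scale on which genes were compared with each other, 3 members supplied most of the family's transcripts. In wildtype libraries Adamts12 stood at 562 and 558 scaled reads per kilobase, Adamts5 at 543 and 547, and Adamts1 at 297 and 297. Next came Adamts10 (174 and 172), Adamts2 (115 and 105) and Adamts4 (79.2 and 76.2), and below them Adamts7 (19.5 and 19.1) and Adamts9 (8.29 and 9.23). Adamts15 and Adamts20 were at the edge of detection, with 7 reads per wildtype library for Adamts15 and 2 and 1 reads for Adamts20. Each neighbour in this order was separated without overlap between libraries, although Adamts12 exceeded Adamts5 by a ratio of 1.03, which rests on the listed lengths.

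The order at the top was different in the other genotypes. In heterozygous libraries Adamts5 led with 682 and 754 scaled reads per kilobase, followed by Adamts1 (412 and 436) and then Adamts12 (344 and 385). In knockout libraries Adamts5 reached 846 and 887 and Adamts1 547 and 551, while Adamts12 was at 291 and 268. Together Adamts1 and Adamts5 made up 46.7% and 47.3% of the summed level of the 10 members in wildtype, 58.9% and 60.8% in heterozygous and 70.6% and 73.2% in knockout libraries, with no overlap between groups. The summed level itself moved less, from 1799 and 1785 in wildtype to 1859 and 1957 in heterozygous and 1974 and 1962 in knockout libraries. Adamts2 and Adamts10 exchanged places, Adamts2 being the higher in both heterozygous libraries and the lower in the other 4.

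**Figure D1:**
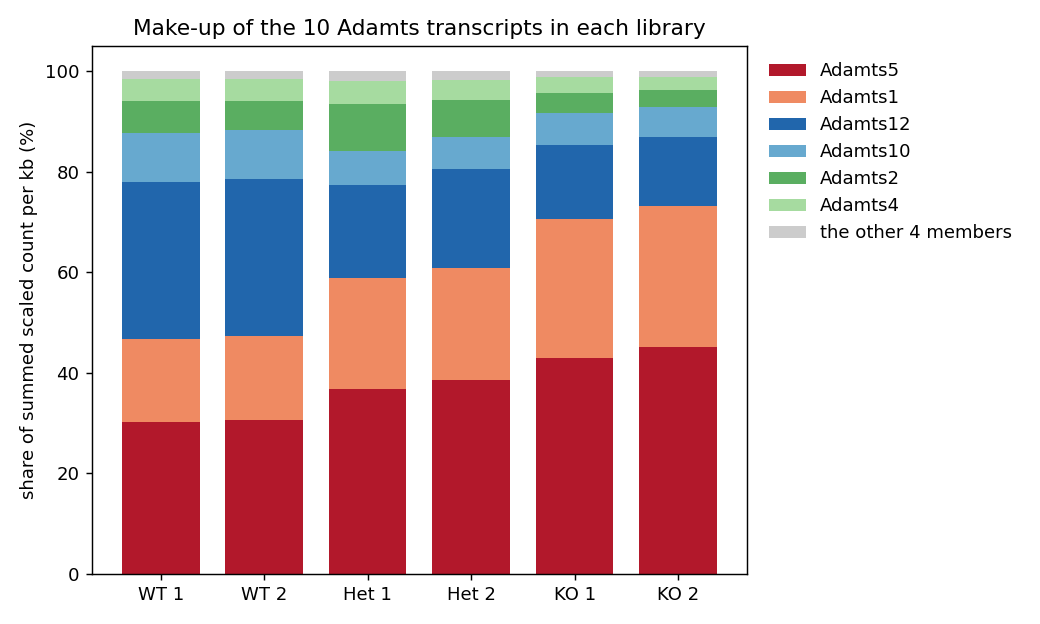
Share of each member in the summed scaled read count per kilobase of the 10 Adamts genes (vertical axis, %), 1 bar per library. Adamts1 and Adamts5 together cover 46.7% and 47.3% of the wildtype bars and 70.6% and 73.2% of the knockout bars, while the Adamts12 segment shrinks from 31.3% to 14.7% and 13.6%.

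Genes that reached 10 scaled reads in 2 libraries or more were tested with limma on log2(value + 1), and passed at a Benjamini-Hochberg adjusted p under 0.05 over all 15781 genes tested. The fit used 1 spread per gene for all groups, drawn toward that of other genes. The wider scatter of the knockout pair therefore also entered heterozygous against wildtype, and knockout tests borrowed from the tighter pairs. Adamts20 did not reach the filter, so 9 of the 10 members were tested. In knockout against wildtype 6 of the 9 passed, 2 higher and 4 lower, where 12.5% of all genes passed (5.42% higher and 7.1% lower). In heterozygous against wildtype 6 passed, 4 higher and 2 lower, where 8.07% of all genes passed (5.33% higher and 2.74% lower). In knockout against heterozygous 5 passed, 1 higher and 4 lower, where 12.5% of all genes passed (4.39% higher and 8.09% lower). Adamts15 reached the filter through both heterozygous libraries and 1 knockout library, so it was tested because it was high there. Without it, a count added after seeing the data, 6 of 8 members passed in knockout against wildtype, 5 of 8 in heterozygous against wildtype (3 higher) and 4 of 8 in knockout against heterozygous (3 lower). The 3 comparisons share libraries, so their counts are not independent. With 1 library left out, the limma counts in knockout against wildtype were 3 without either wildtype replicate and 5 to 7 otherwise. In heterozygous against wildtype they were 0 without wildtype replicate 1, wildtype replicate 2 or heterozygous replicate 1 and 1 without heterozygous replicate 2, although 6 members had an unadjusted p under 0.05 in each of these fits and edgeR and DESeq2 each called 6 with all libraries. In knockout against heterozygous they were 1 without any single wildtype or heterozygous library, 6 without knockout replicate 1 and 7 without knockout replicate 2. Every member change that passed kept its direction under all 17 alternatives. The groups did not overlap in 8 of the 9 members in each comparison, where 50.1%, 54.8% and 50.4% of all genes did not overlap in knockout against wildtype, heterozygous against wildtype and knockout against heterozygous. The median log2 change of the 9 was -0.47, 0.17 and -0.38 in that order, against -0.002, 0.005 and 0.003 over all genes tested.

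**Figure D2:**
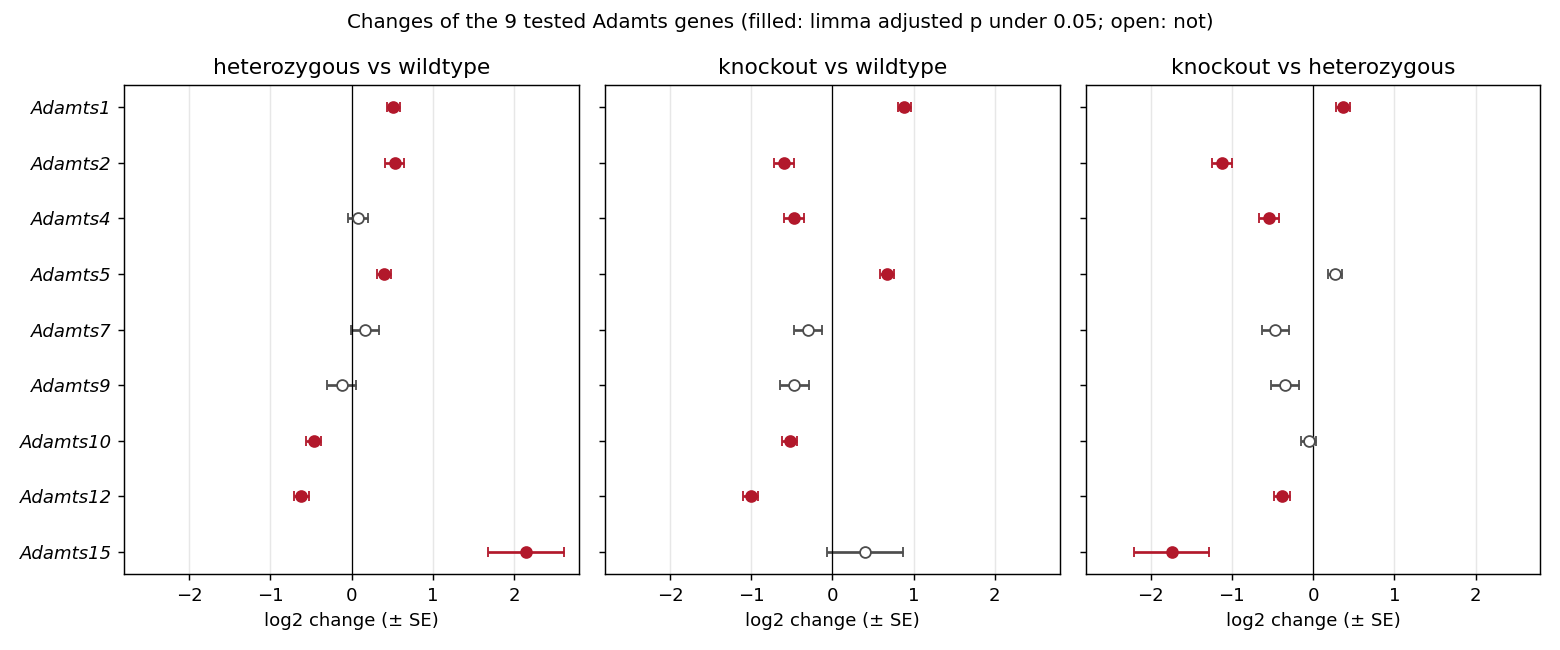
Log2 change (horizontal axis, ± SE from limma) of the 9 tested members in 3 comparisons, with filled points for an adjusted p under 0.05. Adamts1 lies to the right of zero and Adamts12 to the left in all 3 panels, whereas Adamts2 and Adamts15 lie to the right in the heterozygous panel and to the left against heterozygous.

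Among the proteoglycan-cleaving members, the chromosome 16 neighbours Adamts1 and Adamts5 rose against wildtype in both genotypes with Cre. Adamts1 (ENSMUSG00000022893), whose product also binds vascular endothelial growth factor, measured 1876 and 1874 in wildtype, 2606 and 2752 in heterozygous and 3453 and 3478 in knockout libraries. The replicates lay close together and the 3 genotypes were ordered without overlap, with the heterozygous level at 143% and the knockout level at 185% of wildtype. The log2 change was 0.89 ± 0.08 (SE) in knockout against wildtype (limma adjusted p = 0.000164), 0.51 ± 0.08 in heterozygous against wildtype (adjusted p = 0.00509) and 0.37 ± 0.08 in knockout against heterozygous (adjusted p = 0.0181). Knockout against wildtype passed under all 17 alternative settings run, with a largest adjusted p of 0.00697. With 1 library left out, heterozygous against wildtype did not pass when that was either wildtype replicate (adjusted p = 0.0838 without replicate 1 and 0.0861 without replicate 2) or either heterozygous replicate (0.0703 and 0.11), in a range over the alternatives of 8.90e-07 to 0.11. Knockout against heterozygous did not pass without the same libraries (0.0659, 0.0663, 0.212 and 0.113), with a spread prior that does not follow the mean level (no mean trend, 0.0768) or with only the compared groups in the fit (0.0641), in a range of 0.000908 to 0.212.

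Adamts5 (ENSMUSG00000022894), the major aggrecanase of mouse cartilage, was the member with the highest level in both genotypes with Cre. It measured 4391 and 4427 in wildtype, 5517 and 6104 in heterozygous and 6848 and 7175 in knockout libraries. The groups again followed one another without overlap, and the knockout level was 159% of wildtype. Adamts5 rose by 0.67 ± 0.09 on the log2 scale in knockout against wildtype (limma adjusted p = 0.000948, passing under all 17 alternatives) and by 0.40 ± 0.09 in heterozygous against wildtype (adjusted p = 0.0224). The step from heterozygous to knockout was 0.27 ± 0.09 and did not pass (adjusted p = 0.0767), but it passed under 3 of 17 alternatives, among them with either knockout library left out (0.00651 without replicate 1 and 0.022 without replicate 2), in a range of 0.00651 to 0.482. The heterozygous call was lost without either wildtype replicate (0.222 and 0.206 for replicates 1 and 2) or either heterozygous replicate (0.109 and 0.288), and without the mean trend (0.107), in a range of 3.30e-05 to 0.288. RefSeq places a predicted noncoding gene, Gm46558, across the start of Adamts5, and because the strand setting of the counting is not given in the sources used here, reads from it could not be separated.

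Adamts4 (ENSMUSG00000006403), the other well known aggrecanase, measured 530 and 510 in wildtype, 569 and 528 in heterozygous and 411 and 343 in knockout libraries. Wildtype and heterozygous libraries overlapped (0.08 ± 0.12, limma adjusted p = 0.857), and both knockout libraries were below all others. Adamts4 fell by 0.47 in knockout against wildtype (adjusted p = 0.0354) and by 0.54 in knockout against heterozygous (adjusted p = 0.0185). Against wildtype the call was lost without either wildtype replicate (0.246 and 0.187 for replicates 1 and 2) or either heterozygous replicate (0.0922 and 0.0916), without the mean trend (0.0891) and with only those groups in the fit (0.0935), in a range of 0.000207 to 0.246. Against heterozygous it was lost without the same libraries (0.0557, 0.0548, 0.197 and 0.105), without the mean trend (0.0598) and with only those groups (0.0553), in a range of 4.35e-05 to 0.197.

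Adamts9 (ENSMUSG00000030022), a versican-cleaving enzyme that has a related form in nematodes, measured 123 and 137 in wildtype, 118 and 120 in heterozygous and 83.4 and 105 in knockout libraries. Both knockout libraries were lowest, and the knockout pair differed more than the wildtype and heterozygous groups did from each other. Its log2 change in knockout against wildtype was -0.47 ± 0.17 and did not pass (limma adjusted p = 0.128). It passed without knockout replicate 2 (log2 change -0.63, adjusted p = 0.00873), in a range of 0.00873 to 0.532. Knockout against heterozygous was -0.34 ± 0.17 (adjusted p = 0.264), and with knockout replicate 2 left out it was -0.51 (adjusted p = 0.0335), with values from 0.0335 to 0.593 over the alternatives.

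Adamts15 (ENSMUSG00000033453), which also cleaves versican and aggrecan, had few reads and was highest in the heterozygous libraries. It had 7 and 7 reads in wildtype, 33 and 27 in heterozygous and 6 and 11 in knockout libraries, or scaled read counts of 5.42 and 7.32, 30.1 and 32.5, and 5.44 and 13.4. Both heterozygous libraries exceeded the other 4, and wildtype and knockout overlapped. The log2 change was 2.14 ± 0.47 in heterozygous against wildtype (limma adjusted p = 0.0217) and -1.74 ± 0.47 in knockout against heterozygous (adjusted p = 0.0394). Of the 6 libraries, both heterozygous ones and knockout replicate 2 reached the filter's 10 scaled reads, which is why Adamts15 was tested at all. Its tests against the heterozygous libraries are therefore given no weight. The first call was lost without either wildtype replicate (0.169 and 0.103 for replicates 1 and 2) or either heterozygous replicate (0.171 and 0.194), in a range of 0.000151 to 0.194. The second was lost without these libraries (0.0668, 0.0704, 0.21 and 0.238), without knockout replicate 1 (0.0973) and under 5 other settings given in the closing section, in a range of 0.00108 to 0.238. Adamts20 (ENSMUSG00000022449), which is mutated in the belted mouse with its band of unpigmented coat, had 2 and 1 reads in wildtype, 4 and 1 in heterozygous and 3 and 2 in knockout libraries, and a difference was not detectable at this depth.

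**Figure D3:**
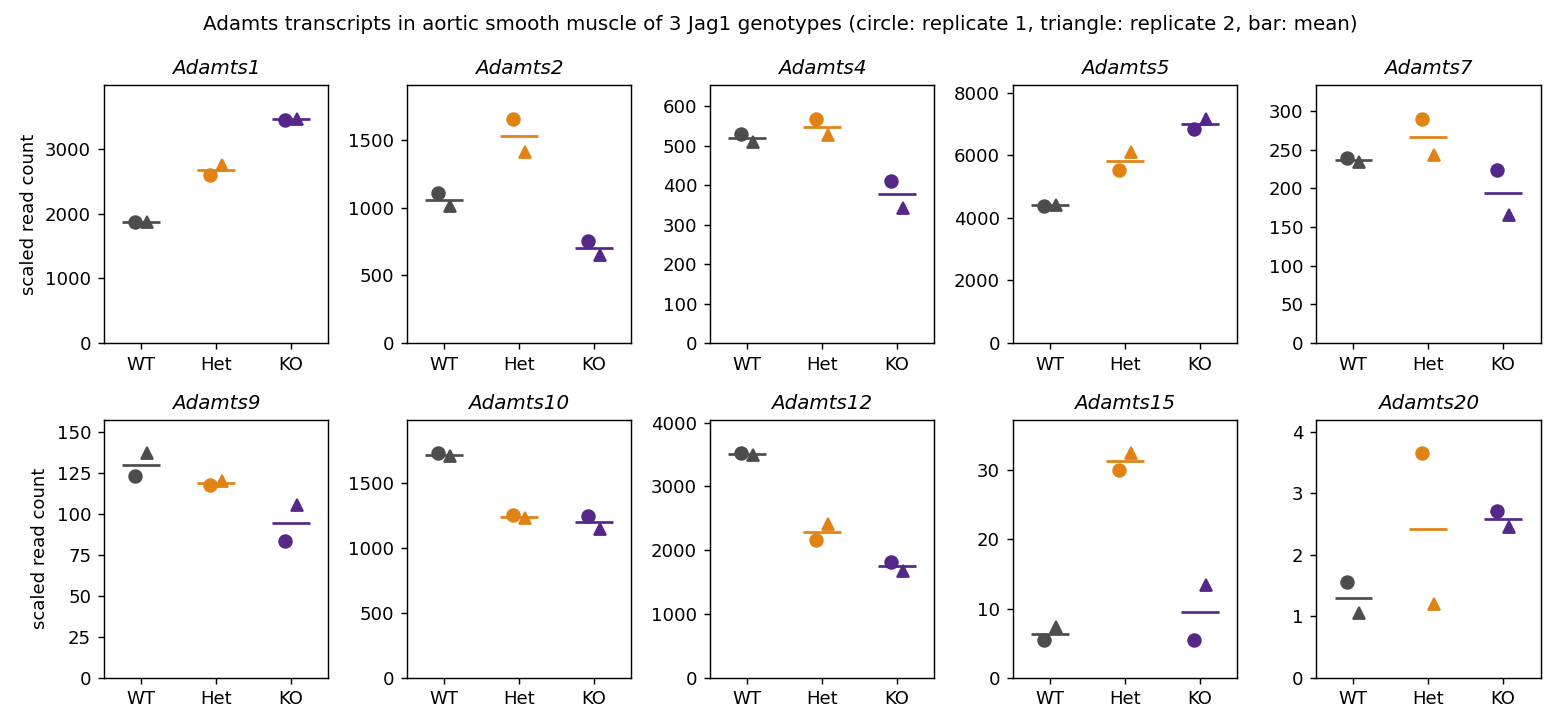
Scaled read count (vertical axis, starting at 0 and scaled for each gene) of the 10 members in wildtype (WT), heterozygous (Het) and knockout (KO) libraries, with circles for replicate 1, triangles for replicate 2 and a bar at the mean of each group. Adamts1 and Adamts5 step up and Adamts12 steps down across the genotypes, while Adamts2 and Adamts15 are highest in the heterozygous pair.

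Adamts2 (ENSMUSG00000036545), the procollagen amino-propeptidase, moved in opposite directions in the heterozygous and knockout libraries. It measured 1110 and 1012 in wildtype, 1660 and 1409 in heterozygous and 753 and 653 in knockout libraries. The heterozygous pair was above and the knockout pair below both wildtype libraries, at 145% and 66.3% of the wildtype mean. Adamts2 rose by 0.53 ± 0.12 on the log2 scale in heterozygous against wildtype (limma adjusted p = 0.0265), fell by 0.60 in knockout against wildtype (adjusted p = 0.0102) and fell by 1.12 in knockout against heterozygous (adjusted p = 0.000227). The last passed under all 17 alternatives. Knockout against wildtype was lost without wildtype replicate 1 (0.134), wildtype replicate 2 (0.062) and the mean trend (0.0605), in a range of 6.72e-06 to 0.134. Heterozygous against wildtype was lost without either wildtype replicate (0.132 and 0.282 for replicates 1 and 2), either heterozygous replicate (0.318 and 0.093) and the mean trend (0.109), in a range of 1.03e-05 to 0.318.

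Of the pair that cleaves Comp, Adamts12 (ENSMUSG00000047497) fell at each step. It measured 3517 and 3490 in wildtype, 2152 and 2407 in heterozygous and 1820 and 1673 in knockout libraries. The genotypes were ordered without overlap in the reverse direction of Adamts1, with the heterozygous level at 65.1% and the knockout level at 49.9% of wildtype. On the log2 scale Adamts12 fell by 1.005 in knockout against wildtype (SE 0.09, limma adjusted p = 0.000164, passing under all 17 alternatives), by 0.62 in heterozygous against wildtype (adjusted p = 0.00362) and by 0.38 in knockout against heterozygous (adjusted p = 0.0281). The heterozygous call was lost without wildtype replicate 1 (0.0673), wildtype replicate 2 (0.062) or heterozygous replicate 1 (0.0873), in a range of 4.04e-08 to 0.0873. The step from heterozygous to knockout was lost without either wildtype replicate (0.0855 for each), heterozygous replicate 1 (0.098) or replicate 2 (0.287), without the mean trend (0.108) and with only those groups (0.0865), in a range of 0.000265 to 0.287.

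Adamts7 (ENSMUSG00000032363), its closest relative by domain layout, measured 239 and 234 in wildtype, 290 and 243 in heterozygous and 224 and 165 in knockout libraries. The heterozygous pair lay above and the knockout pair below the wildtype libraries, but the spread within those pairs was wide. Knockout against wildtype was -0.30 ± 0.17 and did not pass (limma adjusted p = 0.327), but it passed when knockout replicate 1 was left out (-0.52, adjusted p = 0.0113), and adjusted p ranged from 0.0113 to 0.705 over the alternatives. Knockout against heterozygous was -0.46 ± 0.17 (adjusted p = 0.122), and it passed with that library left out (-0.68, adjusted p = 0.000977), with values from 0.000977 to 0.547 over the alternatives. Heterozygous against wildtype was 0.17 ± 0.17 (adjusted p = 0.738).

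Adamts10 (ENSMUSG00000024299), the fibrillin-associated member whose loss in people causes Weill-Marchesani syndrome, was lower in both genotypes with Cre. It measured 1726 and 1706 in wildtype, 1252 and 1228 in heterozygous and 1244 and 1145 in knockout libraries. Both groups with Cre lay below wildtype and overlapped each other, at 72.2% and 69.6% of the wildtype mean. Adamts10 fell by 0.47 on the log2 scale in heterozygous against wildtype (limma adjusted p = 0.0129) and by 0.52 in knockout against wildtype (adjusted p = 0.00489), and the difference between knockout and heterozygous was -0.05 ± 0.09 (adjusted p = 0.765). Because Cre was present in both lower groups and absent from wildtype, Cre and the loss of 1 Jag1 allele cannot be told apart here. Knockout against wildtype was lost without wildtype replicate 1 (0.0772) or wildtype replicate 2 (0.0682), in a range of 1.02e-05 to 0.0772. Heterozygous against wildtype was lost without either wildtype replicate (0.162 and 0.145 for replicates 1 and 2), either heterozygous replicate (0.139 and 0.17) and the mean trend (0.0627), in a range of 8.59e-06 to 0.17.

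Markers of other cells also differed between genotypes. All 15 measured macrophage and leukocyte markers rose in heterozygous against wildtype and fell in knockout against wildtype and against heterozygous, none was at 0 in any library, and their summed level was 32123 and 32249 in wildtype, 67516 and 62709 in heterozygous and 13675 and 13035 in knockout libraries. The group means of Adamts2, Adamts4 and Adamts7 had the same order as this sum, with heterozygous highest and knockout lowest. Adamts15 was also highest in heterozygous libraries. It reached the filter through those libraries and 1 knockout library, so its heterozygous level is given no weight here. Wildtype and heterozygous libraries overlapped for Adamts4, and Adamts7 passed in no comparison. The share of all genes with this order was not counted. Of 7 fibroblast markers 5 rose in heterozygous against wildtype and 4 fell in knockout against heterozygous. Their summed level, mostly Col1a1, was 154447 and 135290 in wildtype, 131688 and 120922 in heterozygous and 125942 and 98275 in knockout libraries. By group mean, Dcn, Dpt, Lum and Pi16 also had the order of the leukocyte sum, though wildtype and knockout libraries overlapped for Lum. Dcn measured 1164 and 1222, 2237 and 2290, and 646 and 535. Ly6a was highest in heterozygous, Pdgfra in knockout and Col1a1 in wildtype libraries. The part of leukocytes or fibroblasts in the values of the members was not tested.

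Of 8 tested chondrocyte markers 5 rose in each comparison, 1 fell in knockout against wildtype and 1 fell in knockout against heterozygous. Comp was among the 5 each time, but it reached the filter through the heterozygous and knockout libraries alone. Its tests against wildtype are therefore given no weight. The sum of the 12 listed went from 411 and 417 through 640 and 601 to 1303 and 1078. The order of this sum across genotypes was that of Adamts1 and Adamts5, and the listed genes moved unequally. Sox6 measured 17.03 and 21.9 in wildtype, 39.2 and 44.5 in heterozygous and 250.2 and 259 in knockout libraries, Col2a1 61.9 and 60.6, 153 and 135, and 272 and 236, and Matn3 18.6 and 21.9, 40.1 and 43.3, and 77.0 and 99.0. Col11a2, the marker that fell in knockout against wildtype, measured 40.3 and 34.5, 25.5 and 22.8, and 16.3 and 15.9. The marker that fell in knockout against heterozygous was Acan. Sox9, the cartilage transcription factor named in the series title, measured 231 and 236, 214 and 188, and 464 and 268, and its knockout against wildtype change missed the threshold (0.59 ± 0.22, limma adjusted p = 0.135), though it passed when knockout replicate 2 was left out (2.60e-06), the lowest of the alternatives, whose highest adjusted p was 0.415. Hapln1 was at 0 in all wildtype and heterozygous libraries and at 1.81 and 4.89 in the knockout libraries, Col9a1 was at 0 in 5 of the 6 libraries, and Matn1 was at 0 in the wildtype and knockout libraries. Of 11 smooth muscle markers 7 fell in knockout against wildtype and 4 in heterozygous against wildtype, and their sum went from 289178 and 278836 through 252890 and 256832 to 236003 and 216092. Single markers differed: the knockout level was 16.1% of wildtype for Des, 30.4% for Actg2, 38.9% for Mylk, 46.3% for Myh11, 73.4% for Acta2, 85.2% for Tagln and 101% for Cald1. The group means of Adamts12, Adamts10 and Adamts9 had the order of the smooth muscle sum. The endothelial sum and, by group mean, the fibroblast sum had this order too. Heterozygous and knockout libraries overlapped for Adamts10, and Adamts9 passed in no comparison. The share of all genes with this order, or with that of the chondrocyte sum, was not counted. The part of any of these shifts in the members' values was not tested. Endothelial markers summed to 5173 and 5024, 3629 and 3881, and 3323 and 2863 in that order of genotypes. Flt1 stood at 3412 and 3403, 1317 and 1529, and 660 and 569. Of 7 tested endothelial markers 1 rose (Kdr) and 3 fell (Flt1, Emcn and Vwf) in knockout against wildtype, 2 rose and 2 fell in heterozygous against wildtype, and 1 rose and 2 fell in knockout against heterozygous. Kdr measured 362 and 364, 527 and 604, and 1153 and 1017, whereas Pecam1, Tie1 and Cldn5 were between 0 and 9.12 in every library and were not tested. Neural and Schwann markers summed to 919 and 874, 653 and 635, and 1323 and 1187, and epithelial markers to 380 and 393, 187 and 155, and 202 and 214. Mesothelial markers summed to 3456 and 3559 in wildtype, 1344 and 1481 in heterozygous and 2874 and 2522 in knockout libraries.

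**Figure D4:**
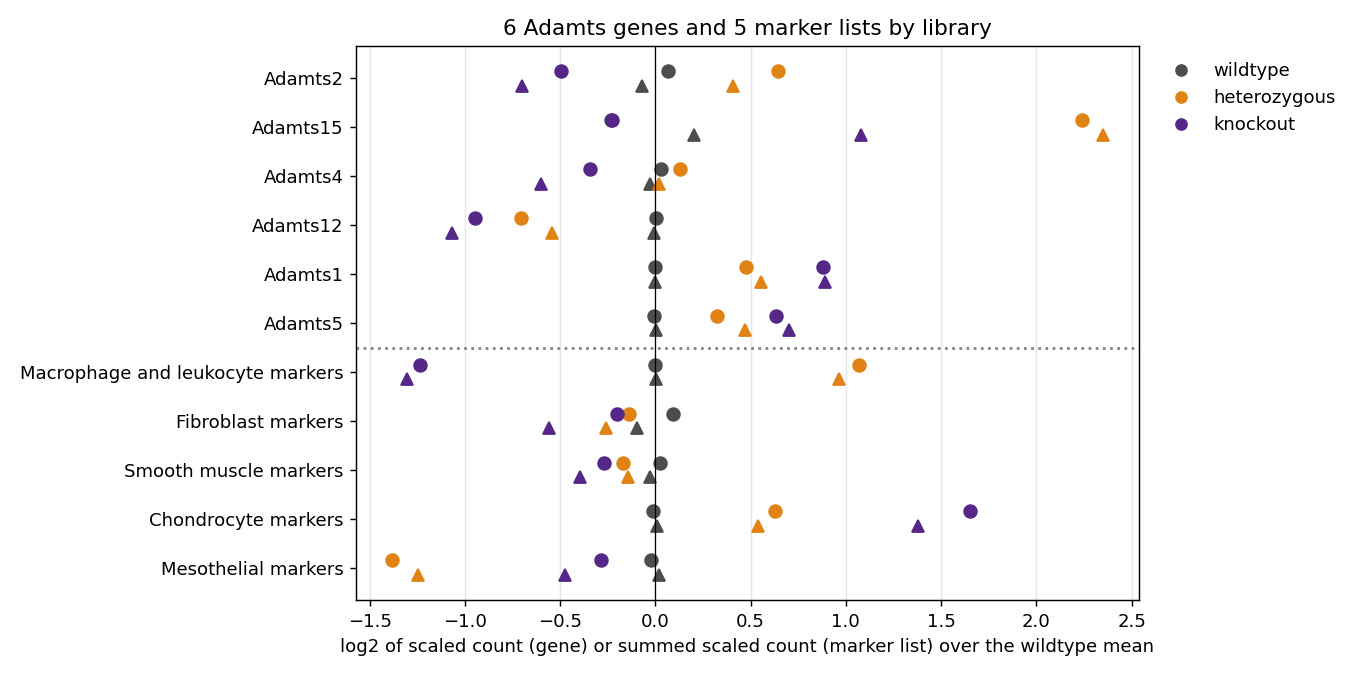
Log2 of the scaled read count of 6 members and of the summed scaled read count of 5 marker lists, each over its own wildtype mean (horizontal axis), by library, with circles for replicate 1 and triangles for replicate 2. Leukocyte markers and Adamts2 lie right of zero in the heterozygous libraries and left in the knockout libraries, and chondrocyte markers, Adamts1 and Adamts5 lie farther right in knockout than in heterozygous libraries.

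Among the 9 other numbered proteases, 5 were tested. Against wildtype, 2 of these fell in the knockout, and for the other 3 the test was not passed. Adamts14, which like Adamts2 trims procollagen, measured 233 and 163 in wildtype, 113 and 118 in heterozygous and 72.5 and 64.8 in knockout libraries, without overlap, and fell by 1.495 on the log2 scale in knockout against wildtype (SE 0.20, limma adjusted p = 0.00102). It fell by 0.75 in heterozygous against wildtype (adjusted p = 0.0497), where Adamts2 rose. That call passed under 10 of 17 alternatives, in a range of 0.000429 to 0.459, and was lost without either wildtype replicate (0.459 and 0.0636 for replicates 1 and 2) or either heterozygous replicate (0.315 and 0.256). Adamts6, the closest relative of Adamts10, measured 823 and 861, 645 and 677, and 476 and 541, and fell by 0.73 in knockout against wildtype (adjusted p = 0.00202). Adamts18 measured 1.55 and 4.18 in wildtype, 5.47 and 1.20 in heterozygous and 14.5 and 19.6 in knockout libraries. It reached the filter through the knockout libraries alone, where it was high, so its test against wildtype is given no weight.

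The Adamts-like proteins share the ancillary domains of the family and lack the protease domain. Of 4 tested, 2 rose in the knockout against wildtype, Adamtsl3 and Adamtsl4. Adamtsl3 measured 301 and 388 in wildtype, 1429 and 1425 in heterozygous and 1917 and 1525 in knockout libraries. It rose by 2.06 ± 0.15 on the log2 scale in heterozygous and 2.32 ± 0.15 in knockout against wildtype (limma adjusted p = 0.000118 and 2.38e-05). Adamtsl4, which binds fibrillin microfibrils, measured 415 and 375, 504 and 506, and 1131 and 838, and rose by 1.30 ± 0.15 in knockout against wildtype (adjusted p = 0.000415). These calls passed under all 17 alternatives.

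Of the substrates, the proteoglycan versican (Vcan) measured 4127 and 4225 in wildtype, 2876 and 3441 in heterozygous and 3387 and 3390 in knockout libraries. It fell by 0.41 in heterozygous against wildtype (limma adjusted p = 0.0378) and was at -0.30 ± 0.10 in knockout against wildtype (adjusted p = 0.0893). The heterozygous call was lost under quantile normalization (0.0507), without the mean trend (0.147), without either wildtype replicate (0.241 and 0.306 for replicates 1 and 2) and without either heterozygous replicate (0.399 and 0.071), in a range of 8.78e-05 to 0.399. Comp, the substrate of Adamts7 and Adamts12, rose while Adamts12 fell. It measured 5.42 and 6.27 in wildtype, 63.0 and 64.9 in heterozygous and 139 and 115 in knockout libraries (log2 change 4.22 ± 0.24 in knockout against wildtype). Comp reached the filter through the heterozygous and knockout libraries alone, where it was high, so its tests against wildtype are given no weight. Aggrecan (Acan) was low, at 22.4 and 11.5, 63.9 and 44.5, and 21.8 and 15.9, and it rose in heterozygous against wildtype and fell in knockout against heterozygous (1.67 ± 0.38 and -1.47 ± 0.38, adjusted p = 0.0258 and 0.0329). The first Acan call was lost without wildtype replicate 2 (0.23), heterozygous replicate 1 (0.279) or heterozygous replicate 2 (0.114) and without the mean trend (0.0677), in a range of 0.000158 to 0.279. The second was lost without heterozygous replicate 1 (0.28) or replicate 2 (0.104), with no filter (0.0514), without the mean trend (0.0699) and under quantile normalization (0.053), in a range of 0.00256 to 0.28. Of the 6 tested proteoglycan and Comp substrates, the 5 other than Comp, Vcan and Acan among them, did not pass in knockout against wildtype.

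Among 9 fibrillar procollagens and their processing genes, 3 were lower in the knockout than in wildtype libraries, 2 were higher, and for 4 the test was not passed. Col3a1 fell by 1.00 and Col1a2 by 0.63 on the log2 scale (limma adjusted p = 0.000105 and 0.00175), Col2a1 rose by 2.03 ± 0.16 (adjusted p = 6.61e-05), and Pcolce2, an enhancer of procollagen processing, rose by 1.43 ± 0.13 (adjusted p = 0.000134). Of the fibrillins, Fbn1 fell from 33161 and 31233 in wildtype to 23668 and 25107 in heterozygous and 18062 and 17474 in knockout libraries (knockout against wildtype -0.86 ± 0.08, adjusted p = 0.000209), and Fbn2 was at -0.30 ± 0.11 (adjusted p = 0.132).

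Among inhibitors and clearance genes, 2 of 5 tested rose in knockout against wildtype, Timp2 and Reck. Timp3, the inhibitor most closely tied to these enzymes, measured 66776 and 70020 in wildtype, 64999 and 70113 in heterozygous and 67455 and 60850 in knockout libraries. Its groups overlapped, and the log2 change in knockout against wildtype was -0.09 ± 0.10 (limma adjusted p = 0.606). Timp2 rose by 0.42 ± 0.09 (adjusted p = 0.0128), and Reck, a membrane-anchored metalloproteinase inhibitor, rose by 0.57 ± 0.10 (adjusted p = 0.0062). The Timp2 call passed under 10 of 17 alternatives, in a range of 0.000118 to 0.159, and was lost without wildtype replicate 1 (0.114) or 2 (0.159) and without heterozygous replicate 1 or 2 (0.0507 for each). The Reck call was lost without wildtype replicate 1 (0.0579) or 2 (0.0937), in a range of 2.32e-06 to 0.0937. Reck also rose in heterozygous against wildtype (0.52 ± 0.10, limma adjusted p = 0.0136), passing under 12 of 17 alternatives. Its knockout against heterozygous change was 0.04 ± 0.10 (limma adjusted p = 0.848). Both groups with Cre were higher, so Cre and the loss of 1 Jag1 allele cannot be told apart for Reck. Of 4 proprotein convertases 1 rose in knockout against wildtype. This was Pcsk5, from 34.1 and 40.8 to 122 and 97.8 (1.53 ± 0.24, limma adjusted p = 0.00288). Furin, the convertase most often tied to Adamts precursors, was at -0.30 ± 0.12 (limma adjusted p = 0.142).

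**Figure D5:**
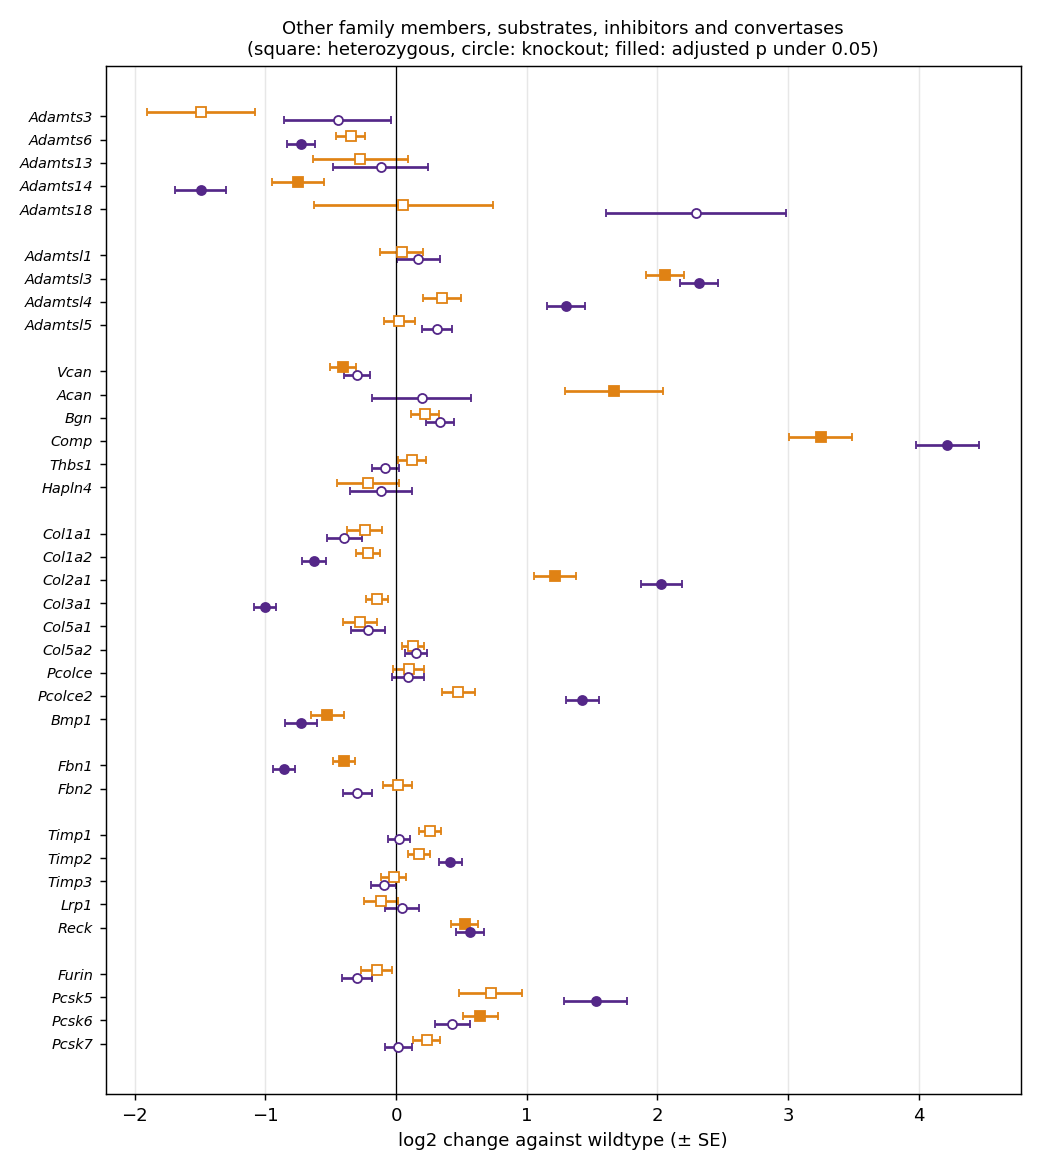
Log2 change against wildtype (horizontal axis, ± SE from limma) of the tested relatives, substrates, inhibitors and convertases, with squares for heterozygous and circles for knockout libraries, filled where the adjusted p was under 0.05. Comp lies farthest right at 4.22 in knockout, but it reached the filter through the heterozygous and knockout libraries alone, so its test is given no weight. Adamtsl3 is at 2.06 and 2.32, and Adamts14 is the farthest left of the filled points at -1.495.

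Genes whose pattern over the 6 libraries lay nearest to that of a member were found by the distance between log2 values centred on each gene's mean. For Adamts1 these were Trp53i11, Arnt2 and Rasgrp3, at distances of 0.09, 0.12 and 0.14 log2 units, and Trp53i11 measured 137 and 134, 190 and 201, and 241 and 238 in wildtype, heterozygous and knockout libraries. For Adamts5 they were Ids, Lpar1 and B3galtl (0.13 to 0.15). For Adamts12 they were Fam84b, Wbscr17 and Bmper (0.10 to 0.17), for Adamts10 Cblb, Dyrk2 and Syne2 (0.09 to 0.13), and for Adamts4 Slc3a2, Csf1 and Chst15 (0.07 to 0.10). Adamts2 lay nearest to Olfml2b, Ifi27l1 and Mdk (0.11 to 0.16). For Adamts15, which had few reads, the nearest were Ptx3, Mmp13 and Lum, at 0.66 to 0.80. The genes were selected for a like pattern, so a high level in the heterozygous libraries follows from the selection. Mmp13 measured 357 and 349, 1092 and 1154, and 296 and 417.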

How the data were processed

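The submitters' processing notes name the build mm9 and the tools DESeq 1.16.0, HTSeq 0.5.4p3 and TopHat2 2.0.4; their roles, the annotation release and the strand setting are not given in the sources used here. The authors' deposited signal per gene and library is a read count divided by 1 size factor per library: all values (100%) were whole multiples of 1 step to within 0.001 of a read, and 1 read was worth 0.774 to 1.22 units. Gene length is as listed in the deposited table, and its RPKM, log2 ratio and p-value columns were not used.

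The filter kept genes reaching 10 scaled reads in 2 libraries or more. They were tested with limma 3.58.1 on log2(value + 1) in a single model of the 6 libraries, with a mean trend (residual degrees of freedom 3, prior 6.17), and p values were adjusted by Benjamini-Hochberg over all genes tested. Fold changes of low genes are understated by the pseudocount. The same fits on simulated counts were tested first. Alternatives included edgeR 4.0.16 and DESeq2 1.42.0 on the recovered reads. The members and lists were chosen with earlier results of these data known. The rule named all members, Jag1, up to 4 genes per list that passed, by smallest p, and the 3 genes nearest in pattern to each member that passed in any comparison, among tested single-row genes with a mean of 50 or more, leaving out predicted models and the other members. Timp3, Furin, Fbn2 and Adamts18 fall outside that rule and were chosen after their values were seen, as were the markers named singly. Replicate numbers were not treated as pairs, because the labels do not say that they mark a shared litter or batch.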

Additional observations from a re-analysis of the deposited data

How the results depend on the processing

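For each comparison 17 alternatives were run. Of 459 recomputed member changes, 385 kept their direction and their side of the threshold, 65 no longer passed, 7 newly passed and 2 turned sign: Adamts10 in knockout against heterozygous, at 0.005618 without knockout replicate 2 and -0.11 without knockout replicate 1, and Adamts15 in knockout against wildtype, at -0.18 and 0.98 without those libraries. Neither had passed. Leaving out single libraries, the number of members passing ran from 3 to 7 in knockout against wildtype, from 0 to 6 in heterozygous against wildtype and from 1 to 7 in knockout against heterozygous. In the limma fits with 0, 6 members had an unadjusted p under 0.05, and edgeR and DESeq2 on all libraries called 6. Over all genes the same fits gave 865 to 5613, 320 to 3013 and 817 to 5673. In those fits the lone library of a group is assumed to vary like the other groups. Without the mean trend 3 members passed in heterozygous against wildtype and 1 in knockout against heterozygous. With only the groups compared, 1 member passed in knockout against heterozygous and 3032 genes in heterozygous against wildtype. The cause was not tested. Adamts15 in knockout against heterozygous was also lost with no filter (adjusted p = 0.0535), quantile normalization (0.055), no mean trend (0.0542), only those groups (0.057) and DESeq2 (0.105). With the replicate number as a replicate block, 6, 6 and 6 members and 2487, 1572 and 2510 genes passed in knockout against wildtype, heterozygous against wildtype and knockout against heterozygous. In that block Adamts5 passed in knockout against heterozygous (0.0397). Deviations of same-numbered libraries correlated at 0.139 to 0.199 across genes. Depth limits Adamts20 and Adamts15.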
